A study of Homo sapiens with 6 samples.

Results

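The long arm of chromosome 11 was examined in ARPE-19 cells, an established human retinal pigment epithelium (RPE) line. Its members were all genes of the deposited table, of any biotype, that start on chromosome 11 on the long-arm side of the centromere (GRCh38 coordinates), which gave 424 of the 7758 genes in the table. The table itself held only genes that its authors had already called different between the groups. Of the 424, 386 were protein-coding. Both groups were stable, puromycin-selected lines made with a lentiviral short hairpin RNA, a scramble hairpin in sh-Control and a hairpin against METTL3 in sh-METTL3. All cells of both groups were stimulated with 1 ug/ml lipopolysaccharide (LPS) for 24 h, and 3 libraries were sequenced per group. The labels do not say whether the 3 libraries came from separate infections or cultures, so every SD below measures only the spread between these libraries. The arm was selected on the log2 ratio of sh-METTL3 to sh-Control in these same libraries, because its genes were already known to be mostly lower. The directions, counts and medians below are therefore descriptions of the contrast that selected them, and no test of the arm, a band or a list was made. Calls per gene are given further on, but they concern genes already called different and lend the directions no support.

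METTL3 is the catalytic subunit of the complex that writes N6-methyladenosine (m6A) on RNA, a mark that bears on the splicing, export, decay and translation of transcripts. The long arm of chromosome 11 is a gene-dense arm. From the centromere outwards it carries the fatty acid desaturases, a dense block in band q13 that holds NEAT1, MALAT1 and the NF-kappaB subunit RELA, the matrix metalloproteinase and caspase clusters of q22, ATM, the small heat shock gene CRYAB and, near its end, the ETS factors ETS1 and FLI1. Several of its genes are studied in the eye, among them BEST1, MYO7A, CRYAB and SERPINH1. Apart from such clusters of relatives, neighbours on the arm have varied functions, so the members are described below by position first and by role second.

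Promoter sequences were taken from RefSeq (GRCh38.p14), each covering 250 bases before to 50 bases after an annotated start. They matched 307 of the 424 genes with 416 promoters. The 3 sequences below are shown because a chaperone gene starts at each and a heat shock element, searched as GAANNTTCNNGAA on both strands and written in capitals, lies in each. SERPINH1 (chr11:75562003-75562302, plus strand) encodes the collagen chaperone HSP47, CHORDC1 (chr11:90223000-90223299, minus strand) a co-chaperone of HSP90 and HSPA8 (chr11:123062087-123062386, minus strand) the constitutive HSP70. The CHORDC1 promoter held 3 matches that overlap each other, and the HSPA8 promoter held 2.

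SERPINH1: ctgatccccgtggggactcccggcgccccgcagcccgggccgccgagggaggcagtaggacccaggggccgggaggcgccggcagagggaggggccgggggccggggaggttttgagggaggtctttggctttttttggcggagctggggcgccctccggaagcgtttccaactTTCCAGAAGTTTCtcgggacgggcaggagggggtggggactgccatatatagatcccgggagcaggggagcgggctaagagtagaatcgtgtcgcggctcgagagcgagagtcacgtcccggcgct
CHORDC1: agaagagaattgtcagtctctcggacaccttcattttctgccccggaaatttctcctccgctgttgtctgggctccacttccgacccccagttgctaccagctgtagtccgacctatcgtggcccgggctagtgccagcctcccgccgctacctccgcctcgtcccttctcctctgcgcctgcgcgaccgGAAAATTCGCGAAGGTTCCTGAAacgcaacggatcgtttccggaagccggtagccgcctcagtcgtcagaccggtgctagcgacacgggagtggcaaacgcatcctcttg
HSPA8: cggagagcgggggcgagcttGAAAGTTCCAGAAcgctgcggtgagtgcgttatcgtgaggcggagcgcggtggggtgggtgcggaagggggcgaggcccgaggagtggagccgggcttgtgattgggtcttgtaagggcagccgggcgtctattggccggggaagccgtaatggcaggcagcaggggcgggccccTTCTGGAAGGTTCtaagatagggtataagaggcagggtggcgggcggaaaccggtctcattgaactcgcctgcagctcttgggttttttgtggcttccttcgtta

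The next 3 promoters stand for genes of the other 2 kinds that the results come back to. BIRC3 (chr11:102317234-102317533, plus strand) encodes the apoptosis inhibitor cIAP2, and its promoter held 2 matches to the NF-kappaB consensus, in capitals. SDHD (chr11:112086623-112086922, plus strand) encodes a membrane anchor of succinate dehydrogenase and starts head to head with TIMM8B. RPS25 (chr11:119018294-119018593, minus strand) encodes a protein of the small ribosomal subunit and starts head to head with TRAPPC4. In both, the capitals mark the ETS motif CCGGAAGT or its reverse complement.

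BIRC3: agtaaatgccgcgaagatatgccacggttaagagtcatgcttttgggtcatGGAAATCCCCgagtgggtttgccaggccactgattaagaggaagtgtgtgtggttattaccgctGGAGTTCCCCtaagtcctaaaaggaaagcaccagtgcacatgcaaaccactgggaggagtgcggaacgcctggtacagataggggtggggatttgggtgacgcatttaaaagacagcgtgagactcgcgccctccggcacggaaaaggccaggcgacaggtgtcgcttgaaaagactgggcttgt
SDHD: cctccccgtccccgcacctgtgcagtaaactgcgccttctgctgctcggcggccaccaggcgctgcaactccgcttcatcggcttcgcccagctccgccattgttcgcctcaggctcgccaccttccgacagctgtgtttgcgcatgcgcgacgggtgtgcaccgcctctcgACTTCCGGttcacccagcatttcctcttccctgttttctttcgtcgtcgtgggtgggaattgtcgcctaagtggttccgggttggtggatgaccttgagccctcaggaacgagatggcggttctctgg
RPS25: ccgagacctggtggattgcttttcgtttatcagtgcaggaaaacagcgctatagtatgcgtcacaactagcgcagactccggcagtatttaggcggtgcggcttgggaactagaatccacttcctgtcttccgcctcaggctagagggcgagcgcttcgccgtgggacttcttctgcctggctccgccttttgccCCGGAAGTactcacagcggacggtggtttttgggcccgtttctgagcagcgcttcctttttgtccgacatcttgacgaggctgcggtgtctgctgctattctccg

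Each value below is the deposited scaled read count of a gene in a library, in which 1 read was worth between 0.798 and 1.29, depending on the library. Values with ± are the mean and SD of the 3 libraries of a group. The reads on the listed genes of a library ranged from 10898434 to 17750052. METTL3 itself, checked first, stood at 1154, 1108 and 1091 in sh-Control and at 966, 1001 and 765 in sh-METTL3. The sh-METTL3 mean was 18.5% lower and the groups did not overlap. The list of 20 RPE marker symbols held SILV and CRALBP, which are aliases of PMEL and RLBP1 in the same list. Of these symbols 9 were in the table, of which 3 were lower and 6 higher in sh-METTL3. Their summed scaled count was 18880 to 20160 per library in sh-Control and 30739 to 33908 in sh-METTL3, and RAX was at 0 in every sh-Control library. Most of this sum came from the general epithelial keratins KRT8 and KRT18, at 16248 to 17484 and 28440.3 to 31833. The other 7 markers summed to 2582 to 2676 in sh-Control and to a lower 2075 to 2299 in sh-METTL3, but they did not move one way. SERPINF1, PMEL and BEST1 had log2 ratios of -3.05, -1.80 and -1.70, whereas MITF, LRAT and SLC16A8 had 0.85, 0.99 and 1.32 and RAX was at 379.7 to 529.6 in sh-METTL3. The 4 listed of 8 fibroblast markers, THY1 of this arm included, were all lower, with sums of 11364 to 13232 and 4730 to 5383. The 2 listed of 10 leukocyte markers, CD14 and ITGAM, summed to 102 to 122 and to 6.72 to 17.7. ROBO4, also of this arm, was the 1 listed of 6 endothelial markers. The part of these marker shifts in the results below was not tested, and in bulk RNA fewer cells of a type and less RNA per cell cannot be told apart.

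Of the 424 listed genes of the long arm, 367 (86.6%) were lower and 57 were higher in sh-METTL3. The median log2 ratio of the sh-METTL3 mean to the sh-Control mean was -0.63, with quartiles of -0.94 and -0.40. A single signed value given for a gene below is this log2 ratio of means. As a linear ratio the median was 0.646. The median linear ratio was 0.643, 0.640 and 0.635 when the 3 sh-METTL3 libraries were each set against the sh-Control mean, values close to each other. Gene by gene over all listed genes, sh-METTL3 replicate 3 stood apart. The chi-square of reads per degree of freedom was 17.24 and 16.15 for its pairs with replicates 1 and 2. It was 3.818 between replicates 1 and 2, and 6.422 to 11.33 within sh-Control. The 7334 listed genes elsewhere in the genome divided almost evenly, with 3687 (50.3%) lower and a median log2 ratio of -0.17. The 154 listed genes of the short arm did likewise, with 76 lower (49.4%) and a median of 0.14.

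Among the lower genes alone, a ratio between 0.5 and 0.8 was found for 255 of 367 members (69.5%) and for 1896 of 3687 lower genes elsewhere (51.4%). A fall of 1 or more on the log2 scale was as frequent on the arm, with 92 of 367 (25.1%), as elsewhere, with 930 of 3687 (25.2%). The lower members had a median log2 ratio of -0.70 with an interquartile range of 0.49, against -0.52 with a range of 0.67 elsewhere. On chromosome 15, where 68.6% of 315 listed genes were lower, the 216 lower genes had a median of -0.89 and 44.4% had a fall of 1 or more. A rise of 1 or more was found for 18 members and for 1349 of the 7334 genes elsewhere.

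**Figure D1:**
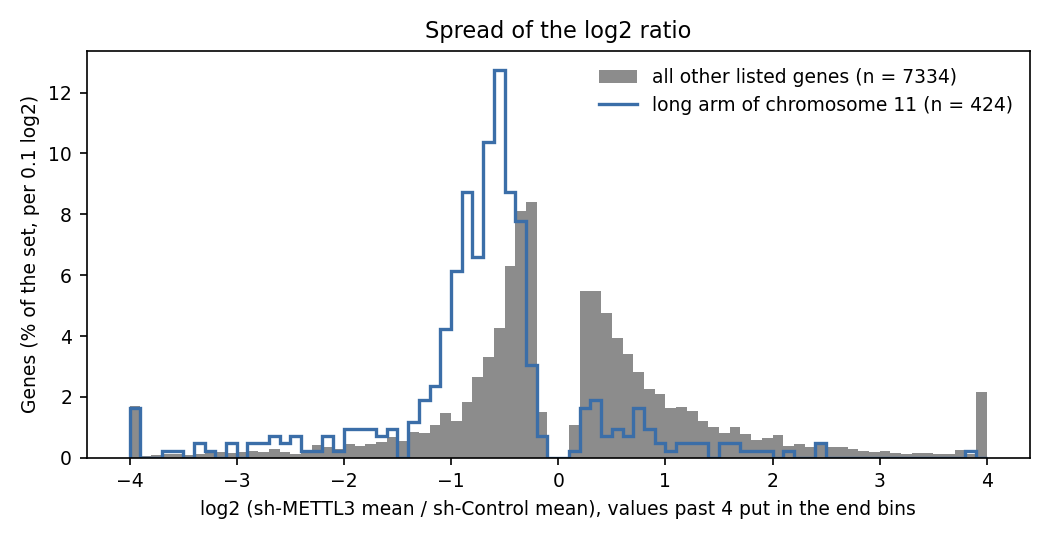
Share of genes (%, per 0.1 log2) by log2 ratio of the sh-METTL3 mean to the sh-Control mean, for the 424 listed genes of the long arm (blue line) and the 7334 other listed genes (grey). The arm has its main peak below 0, with a median of -0.63, whereas the other genes form a peak on each side of 0. Few values lie near 0 in a table that holds only genes already called different.

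By limma on log2(scaled count + 1), all 424 members passed an adjusted p of 0.05, 367 as lower and 57 as higher. By the same rule 52.2% of all 7758 listed genes were called lower and 47.6% higher, so passing the test says nothing about the members in a table selected in this way. The 3 libraries of one group did not overlap the 3 of the other for 421 members, against 51.7% of all listed genes not overlapping and lower and 46.7% not overlapping and higher. The 3 members whose groups overlapped, INCENP, COX8A and TAGLN, were all among those with a higher mean in sh-METTL3. A larger share of its genes also reached the table than elsewhere. Of 862 protein-coding genes annotated on the arm 386 (44.8%) were listed, against 33.3% of 19089 in the rest of the genome.

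Lower genes prevailed at every level of expression, with a wider spread among weakly expressed genes. The 141 members with the lowest means were 80.9% lower, with a median log2 ratio of -0.86 and an interquartile range of 1.29. The 141 with intermediate means were 90.1% lower, with a median of -0.62 and an interquartile range of 0.48. The 142 with the highest means were 88.7% lower, with a median of -0.56 and an interquartile range of 0.40. Genes elsewhere at the same 3 levels had medians of 0.60, -0.27 and -0.22. Per kilobase of gene model, the median scaled count of the members was 208 in sh-Control and 126 in sh-METTL3.

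Along the arm, every band had a median below 0. In q11-q12, from TNKS1BP1 at chr11:57299638 to RARRES3 at chr11:63536809, 38 of 49 members were lower, with a median log2 ratio of -0.52. In q13, the band with the most members, 150 of 179 were lower with a median of -0.59. In q14 the count was 26 of 31 (median -0.68) and in q21 it was 23 of 24 (median -0.69). Band q22 had 28 of 30 lower and the lowest median, -0.82, with an SD of 0.0666 between the sh-METTL3 libraries. Its distance from q24 was smaller than this SD. In q23 51 of 56 were lower (median -0.63), in q24 44 of 46 (median -0.81) and in q25, next to the chromosome end, 7 of 9 (median -0.51).

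The order of the bands was compared across libraries. In q22 the median ratio to the sh-Control mean was 0.589, 0.579 and 0.540, and in q24 it was 0.586, 0.572 and 0.559. In q11-q12 it was 0.679, 0.706 and 0.698. These values share the sh-Control mean, so each sh-METTL3 library was also set against each single sh-Control library. Over these 9 pairs the median ratio was 0.523 to 0.628 in q22 and 0.551 to 0.588 in q24, against 0.679 to 0.752 in q11-q12 and 0.664 to 0.733 in q25. Single sh-Control libraries against the mean of the other 2 gave band medians of 0.958 to 1.05. Against the sh-Control mean, q14, q21 and q23 lay between 0.600 and 0.651 with overlapping libraries.

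**Figure D2:**
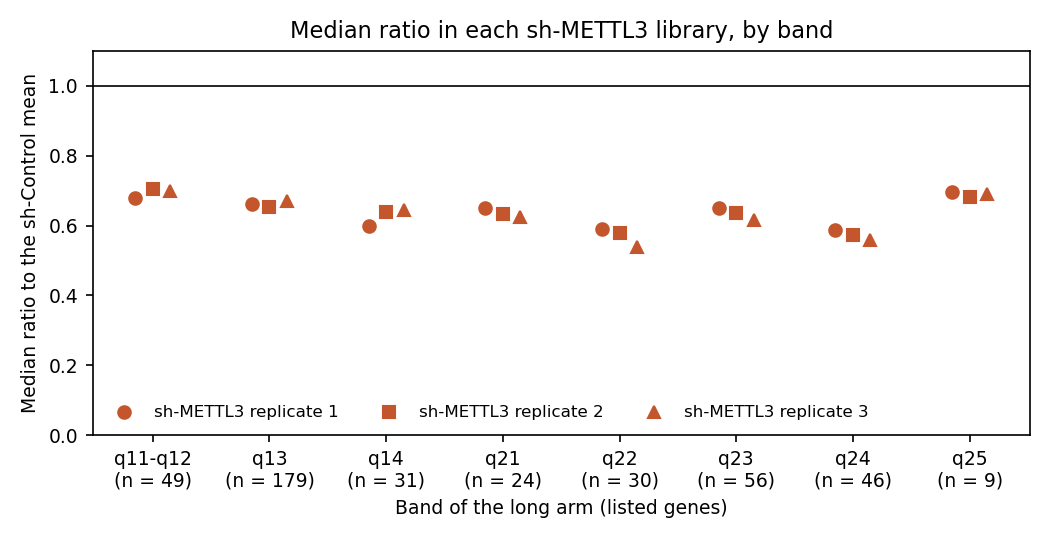
Median ratio to the sh-Control mean (linear, 1 is equal) of the listed genes of each band, in each of the 3 sh-METTL3 libraries (circle, square, triangle). Every point lies below 1, with the lowest library values in q22 (0.540 to 0.589) and q24 (0.559 to 0.586).

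In stretches of 5 Mb, the share of lower genes was smallest between 60 and 65 Mb, where 33 of 50 members were lower, 17 were higher and the median log2 ratio was -0.37. All 18 members between 90 and 95 Mb and all 14 between 105 and 110 Mb were lower, with medians of -0.79 and -0.82. The longest unbroken run of lower genes held 40 members over 6.51 Mb, from RNF214 (chr11:117232625) to ZNF202 (ending at chr11:123741675), with a median of -0.71. A run of 27 members from SF3B2 to PPP1CA filled 1.37 Mb of q13, and a run of 23 from RAB38 to ENDOD1 spanned 7.02 Mb.

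The longest run of higher genes held only 5 members, in 0.0609 Mb of q13 (chr11:64223799-64284704), with a median log2 ratio of 0.31. It comprised TRPT1, a tRNA 2'-phosphotransferase (0.33), the co-chaperone DNAJC4 (0.31), the protein phosphatase 1 inhibitor PPP1R14B (0.52), the phospholipase PLCB3 (0.22) and the pro-apoptotic BCL2 family member BAD (0.30). PPP1R14B, with the highest log2 ratio of the 5, stood at 2343, 2425 and 2319 in sh-Control and 3126, 3272 and 3760.1 in sh-METTL3. The genes that flank the run were lower, the HSP90 co-chaperone STIP1 at -0.21 before it and the nuclear receptor ESRRA at -0.64 after it. PRDX5, a peroxiredoxin next to ESRRA, was higher again (0.25).

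**Figure D3:**
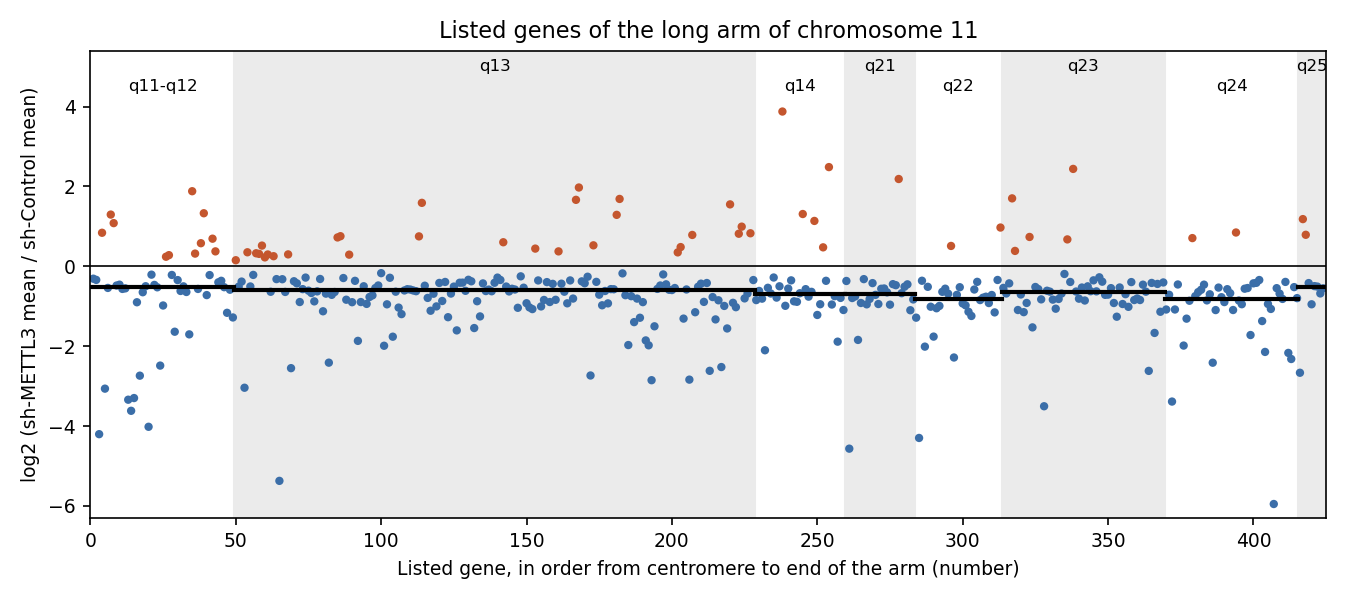
Log2 ratio of the sh-METTL3 mean to the sh-Control mean for the listed genes in order along the arm, lower genes in blue and higher genes in red. Shading separates the bands and black bars give their medians, from -0.51 in q25 to -0.82 in q22. SNORD14E, at 0 in every sh-METTL3 library, is not drawn.

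The listed genes nearest the centromere were lower on both sides of it. NUP160, a nuclear pore protein and the last listed gene of the short arm, stood at 1158 ± 45.1 in sh-Control and 812 ± 109 in sh-METTL3. TNKS1BP1, a tankyrase-binding protein and the first listed gene of the long arm, stood at 7642 ± 303 in sh-Control and 6166 ± 156 in sh-METTL3. Their log2 ratios were -0.51 and -0.31.

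The 10 largest falls and 10 largest rises were ranked by log2 ratio among members whose groups did not overlap and whose mean scaled count reached 100. The largest fall was that of NNMT, which methylates nicotinamide with S-adenosylmethionine. It stood at 687, 739 and 741 in sh-Control and 71.8, 70.9 and 48.1 in sh-METTL3, a log2 ratio of -3.51. The groups lay far apart, with every sh-METTL3 library below every sh-Control library. SLC43A1, an amino acid transporter, stood at 393, 399.7 and 373 in sh-Control and 56.9, 39.9 and 42.6 in sh-METTL3 (-3.06). Its relative SLC43A3, a nucleobase transporter in the same band whose mean lay below the limit for the ranking and which was chosen after its values were seen, stood at 189, 173 and 165 in sh-Control and 8.4, 9.02 and 11.2 in sh-METTL3 (-4.20).

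4 of the 10 largest falls were in genes of adhesion proteins, a guidance receptor and a matrix protease. The GPI-anchored adhesion protein NTM stood at 1768 ± 35.2 in sh-Control and 278 ± 28.6 in sh-METTL3, a log2 ratio of -2.67. The GPI-anchored glycoprotein THY1 stood at 200.2, 162 and 166 in sh-Control and 20.5, 21.9 and 43.7 in sh-METTL3 (-2.62). The roundabout receptor ROBO4 stood at 1216, 1366 and 1195 in sh-Control and 229.5, 211 and 268 in sh-METTL3 (-2.41), whereas its neighbour ROBO3 had a smaller log2 ratio of -0.70. ADAMTS15, a metalloproteinase that cleaves matrix proteoglycans, fell from 358 ± 27.5 to 79.5 ± 4.81 (-2.17).

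The remaining falls were of varied function. SHANK2, a synaptic scaffold protein of the q13 region, stood at 440.3, 489 and 427 in sh-Control and 53.2, 64.4 and 86.2 in sh-METTL3 (-2.73). The interferon-inducible leucine zipper factor BATF2 stood at 195, 178 and 149 in sh-Control and 24.3, 24.5 and 40.3 in sh-METTL3 (-2.55). CASP1, which cleaves the precursors of interleukin-1 beta and interleukin-18, stood at 609, 624 and 679 in sh-Control and 144, 138 and 111 in sh-METTL3 (-2.28). KCTD14, a BTB domain protein, was at -2.10.

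Among the rises, CRYAB, the lens and stress chaperone alpha-B crystallin, was first. It stood at 5240.2, 5718 and 5705 in sh-Control and 20207, 20708 and 13307 in sh-METTL3, a log2 ratio of 1.70. The third sh-METTL3 library was lower than the other 2 but still above every sh-Control library. GANAB, the catalytic subunit of glucosidase II in glycoprotein folding, stood at 7225, 7345 and 7182 in sh-Control and 18352, 17826 and 18492 in sh-METTL3 (1.33). SERPING1, the inhibitor of complement C1, stood at 1307, 1456 and 1421 in sh-Control and 3397, 3449.8 and 3428 in sh-METTL3 (1.30). For both genes the libraries of a group lay close together.

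SYTL2, a Rab27 effector in vesicle transport, rose from 393 ± 7.42 to 975 ± 196 (1.31). MYEOV stood at 57.4, 66.3 and 61.7 in sh-Control and 208, 175 and 205 in sh-METTL3 (1.67), and the secreted folate-binding protein FOLR3 at 218, 286 and 219.7 in sh-Control and 634, 558 and 577 in sh-METTL3 (1.29). The other rises were the transcript MIR4697HG (1.18), ARHGAP20 (0.97), the hedgehog co-receptor CDON (0.85) and the Nogo receptor relative RTN4RL2 (0.84). The 10 rises were spread over 7 of the 8 bands, and no 2 of them were adjacent in the table.

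**Figure D4:**
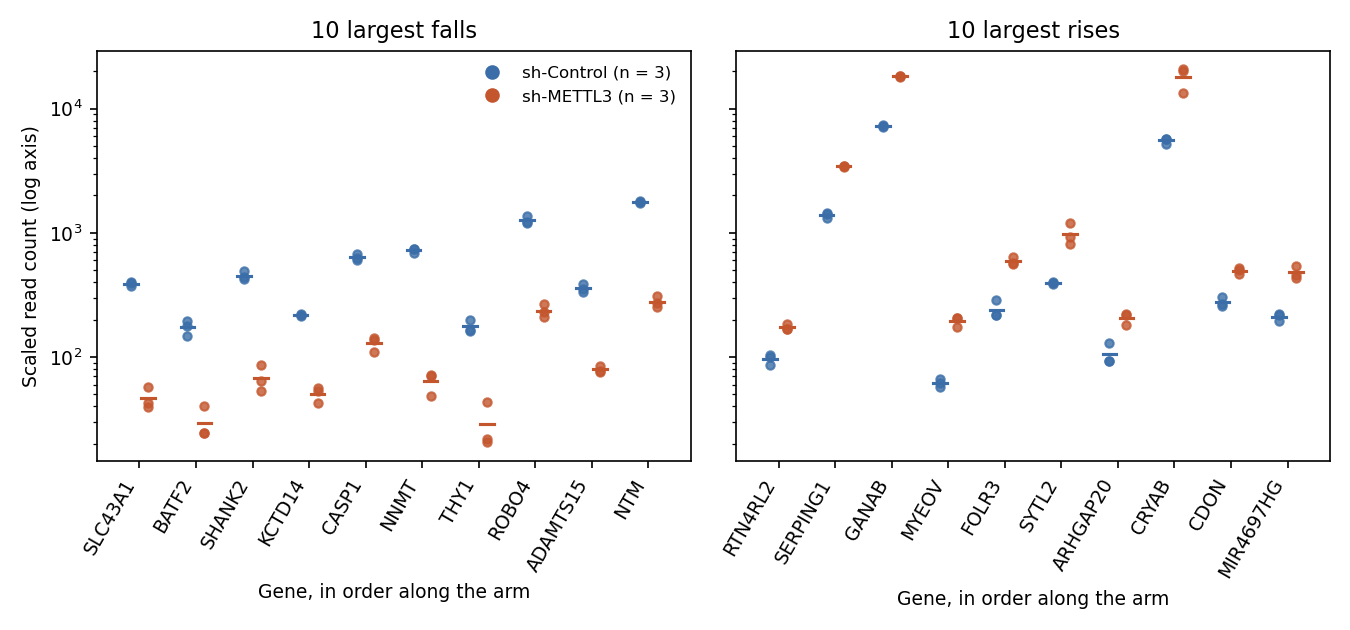
Scaled read count (log axis) of the 10 largest falls (left) and 10 largest rises (right) in the 3 sh-Control (blue) and 3 sh-METTL3 (red) libraries, with bars at the group means. Genes are in order along the arm, and the 2 groups do not overlap for any of the 20.

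Of the 41 higher members with a mean of at least 100, 33 stood amid lower genes, in that the 3 listed genes on each side were all lower or the 6 had a median log2 ratio of -0.3 or less. On an arm where 86.6% of listed genes were lower, most higher members have such neighbours. The 33 included 9 of the 10 largest rises, all but GANAB. Some of them shared a short stretch with a gene that fell. CASP4, which binds LPS inside the cell, stood at 388, 397 and 410.3 in sh-Control and 602, 595 and 505 in sh-METTL3 (0.51), next to CASP1 in the table, which was at -2.28. IL18, the cytokine that CASP1 matures, stood at 2098, 2180.1 and 2146 in sh-Control and 3713, 4028 and 2956 in sh-METTL3 (0.74), while the 6 genes around it had a median of -0.81.

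The nuclear long noncoding RNA NEAT1, which builds paraspeckles, stood at 50368, 39344 and 44043 in sh-Control and 75261, 72622 and 72997 in sh-METTL3 (0.72). MALAT1, the nuclear speckle RNA on the same strand beside it, stood at 14399.5, 14204 and 17779 in sh-Control and 12061, 13201 and 12588 in sh-METTL3 (-0.29). The 2 therefore differed in direction although only 1 other listed gene lies between them. PRSS23, a secreted serine protease, was at 18822 ± 1107 in sh-Control and 26169 ± 1724 in sh-METTL3 (0.48) amid genes with a median of -0.66. LTBP3, which binds latent TGF-beta, was at 20194 ± 725 in sh-Control and 24730.4 ± 1379 in sh-METTL3 (0.29).

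Smaller rises amid lower neighbours were those of the DNA damage-binding protein DDB1 (0.24), the reticulon RTN3 (0.15), the mitochondrial uncoupling protein UCP2 (0.35) and the protein phosphatase methylesterase PPME1 (0.48). The myosin MYO7A, which moves organelles in the RPE, stood at 540.1, 453 and 413 in sh-Control and 768, 684 and 1044 in sh-METTL3 (0.83). TAGLN, an actin-binding protein of smooth muscle and myofibroblasts, stood at 1558, 1903 and 1762 in sh-Control and 3125, 3319.6 and 1891 in sh-METTL3 (0.67), and the third sh-METTL3 library fell within the sh-Control range.

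Genes that start head to head, on opposite strands with starts within 1000 bases of each other, formed 27 pairs. Both genes were lower in 25 of them (92.6%), and the median difference in log2 ratio within these 25 was 0.24. Among the 399 other pairs of listed genes next to each other along the arm, both were lower in 304 (76.2%), with a median difference of 0.39. The difference between the kinds of pair was not tested. ATM, the kinase that senses double-strand breaks, and NPAT, a coactivator of histone genes, were at -0.79 and -0.85. TIMM8B, a chaperone of mitochondrial protein import, stood at 613, 602 and 580.5 in sh-Control and 267, 268 and 275 in sh-METTL3, and SDHD, whose promoter is printed above, at 1544, 1511 and 1695 in sh-Control and 868, 852 and 795 in sh-METTL3. Their log2 ratios were -1.15 and -0.92. RPS25 and TRAPPC4, the latter a vesicle tethering protein, were at -0.71 and -0.55.

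The 2 remaining pairs lay close to each other in q13 and went in opposite directions. THAP12, a zinc finger protein, was at 1762, 1680.5 and 1879 in sh-Control and 915, 818 and 885 in sh-METTL3 (-1.02), while GVQW3, which starts 342 bases away, was at 43.1, 41.3 and 45.8 in sh-Control and 56.9, 59.3 and 113 in sh-METTL3 (0.82). The transcript AP002360.1 was at 0.99 and EMSY, a BRCA2-binding protein, at -0.80. In 12 of the 27 pairs the annotated ends overlap, and 108 members overlap some other member. Whether the counting used strand is not given in the sources used here, and 51 of the 64 overlapping pairs of members are on opposite strands. Unless strand was used, reads in the shared bases of these pairs cannot be told apart.

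**Figure D5:**
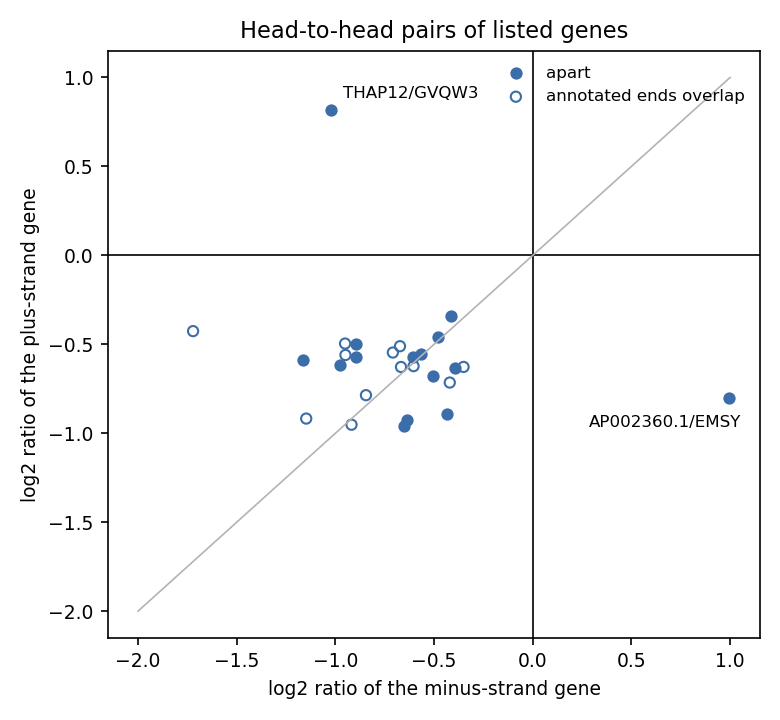
Log2 ratio of the plus-strand gene against that of the minus-strand gene for the 27 pairs with starts within 1000 bases, with open circles for the 12 pairs whose annotated ends overlap and a grey line where both are equal. 25 pairs lie below 0 on both axes, and the 2 with opposite signs are named.

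The counts by role below stand beside the 86.6% of all members that were lower, and several genes are in more than 1 list. Of 22 inflammatory signalling genes annotated on the arm 18 were in the table, 15 lower and 3 higher, with a median log2 ratio of -0.79 against -0.63 for all members. RELA, the p65 subunit of NF-kappaB, stood at 4029, 4431 and 4061 in sh-Control and 2446, 2335 and 2573 in sh-METTL3 (-0.77). BIRC3, an NF-kappaB target whose promoter is shown above, stood at 8409, 8238 and 8081 in sh-Control and 2310.0, 2228 and 1595 in sh-METTL3 (-2.01). BIRC2, the neighbour and paralogue of BIRC3, had a smaller log2 ratio of -0.51. The Toll-like receptor trafficking protein UNC93B1 was at -1.07, the arrestin ARRB1 at -1.33, the channel PANX1 at -0.82 and the interleukin-18 inhibitor IL18BP at -0.93. The 3 higher genes were SERPING1, IL18 and CASP4.

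The 6 listed of 11 caspase and apoptosis regulators were mixed, with CASP1, BIRC3, BIRC2 and FADD (-0.38) lower and CASP4 and BAD higher. Only 2 of the 9 matrix metalloproteinase genes of the q22 cluster were listed. MMP3, stromelysin-1, stood at 156, 111 and 127 in sh-Control and 88.6, 52.8 and 49.3 in sh-METTL3 (-1.05), and MMP7, matrilysin, at 19.9, 29.8 and 23.4 in sh-Control and 13.1, 5.15 and 3.36 in sh-METTL3 (-1.76). Of 23 genes in a list of proteases 10 were in the table, 9 of them lower and PRSS23 higher, with a median of -0.90. This list also held the cytosolic proteases CAPN1 and DPP3 and the collagen chaperone SERPINH1, a serpin by sequence, but not the higher protease inhibitor SERPING1. The lysosomal protease CTSC was at -0.75 and CTSF at -0.61.

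All 15 listed of 24 transcription factor and chromatin genes were lower, with a median log2 ratio of -0.68. ETS1 stood at 11284, 11568 and 11261 in sh-Control and 5681, 5982 and 4613 in sh-METTL3 (-1.07). Its neighbour FLI1, another ETS factor, stood at 39.1, 30.7 and 45.8 in sh-Control and 1.87, 0 and 0 in sh-METTL3, too few reads in sh-METTL3 for a ratio to be given. The AP-1 subunit FOSL1 was at -1.20, the Notch coactivator MAML2 at -1.10, the methyltransferase KMT2A at -0.62 and the Hippo pathway coactivator YAP1 at -0.36. The progesterone receptor PGR stood at 119, 126 and 153 in sh-Control and 5.6, 9.02 and 5.6 in sh-METTL3 (-4.30).

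In a list of 20 genes, mostly of DNA repair and replication, 17 were in the table, 16 lower, with a median of -0.67, and DDB1 higher. It also held the splicing factor CWC15, the zinc finger factor ZBTB44 and the Polycomb subunit EED. The polymerase subunits POLD3 (-1.15) and POLA2 (-1.13) and the endonuclease MUS81 (-0.95) had the lowest log2 ratios among them. ATM stood at 3399.8, 3297 and 3377 in sh-Control and 1918, 1951 and 1973 in sh-METTL3, a narrow range in each group, and the checkpoint kinase CHEK1 was at -0.67 and MRE11, a nuclease of break repair, at -0.42.

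In a list of 28 genes, mostly of ribosome, splicing and translation, 23 were in the table and 22 were lower, with a median of -0.60. RPS3 stood at 44540.3, 44025 and 42125 in sh-Control and 24660.0, 24235 and 23575 in sh-METTL3 (-0.85), and RPS25 at 18923, 18666 and 18841 in sh-Control and 11599.5, 11472 and 11452 in sh-METTL3 (-0.71). The 3 libraries of each group differed little for both. FAU, which encodes a ribosomal protein fused to a ubiquitin-like domain, was at -0.67, and the snoRNA host SNHG1 was at -1.16. The 1 higher gene was GANAB, a glycoprotein folding enzyme and not a translation gene. The list also held the glycosylation enzyme DPAGT1 and the chromatin factor SSRP1, both lower.

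The mitochondrial list had 21 of 28 genes in the table, 19 lower with a median of -0.56 over all 21, and COX8A and UCP2 higher. It also held AASDHPPT and PTS, enzymes not confined to mitochondria, both lower. DLAT, a subunit of the pyruvate dehydrogenase complex, stood at 1675 ± 62.1 in sh-Control and 785 ± 39.6 in sh-METTL3 (-1.09), and the respiratory complex I subunits NDUFV1 and NDUFS8 were at -0.54 and -0.35. A list of 17 genes around lipid metabolism had 10 in the table, all lower, with a median of -0.47. Of these, FEN1, BEST1, MYRF, LRP5 and SORL1 are not lipid enzymes, and the lipid enzymes were FADS1, FADS2, CPT1A, ACAT1 and SC5D. The desaturase FADS2 was at 4899 ± 315 in sh-Control and 3459.9 ± 640.4 in sh-METTL3 (-0.50), its neighbour FADS1 at -0.64, the carnitine palmitoyltransferase CPT1A at -0.43, the acetyl-CoA acetyltransferase ACAT1 at -0.39 and the sterol desaturase SC5D at -0.40.

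In a list of 28 genes, mostly of trafficking, 21 were in the table, with 20 lower, SYTL2 higher and a median of -0.64. It also held CLNS1A, a factor of spliceosomal particle assembly, and the lipid transfer protein STARD10, both lower. APLP2, a relative of the amyloid precursor protein, stood at 55564, 58081 and 57264 in sh-Control and 33398, 32565 and 31084 in sh-METTL3 (-0.82). The clathrin assembly protein PICALM was at -0.57, the sorting receptor SORL1 at -1.08 and the autophagy protein ATG16L2 at -1.29. Of 16 genes in a list for the q13 amplicon seen in carcinomas 10 were in the table, with 9 lower, MYEOV higher and a median of -0.36. RSF1 and GAB2 of this list lay in q14 by the bands used here. The cortactin gene CTTN was at 15296 ± 336 in sh-Control and 12768 ± 406 in sh-METTL3 (-0.26).

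The immunoglobulin-fold adhesion genes had 10 of 20 in the table, 8 lower and 2 higher, with a median of -0.77. NTM, ROBO4 and THY1 were at the low end, KIRREL3 was at -1.37 and the junctional protein JAM3 at -0.42, while CDON and IGSF9B (0.79) were higher. The eye and RPE list had 9 of 16 genes listed, 6 lower and 3 higher, with a median of -0.44. It also held the guidance receptor ROBO3 and the collagen chaperone SERPINH1, both lower and neither particular to the eye. BEST1, the bestrophin chloride channel of the RPE, stood at 79, 81.7 and 87.9 in sh-Control and 14.9, 32.2 and 29.1 in sh-METTL3 (-1.70). The Norrin receptor FZD4 was at -0.36. CRYAB, MYO7A and the disc membrane protein ROM1 (0.58) were higher.

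A list of mostly chaperones and stress genes was divided, with 13 of 17 listed, 9 lower and 4 higher, and a median of -0.45. It also held the oligosaccharyltransferase subunit STT3A and the phosphatase 2A scaffold subunit PPP2R1B, both lower. SERPINH1 stood at 11101, 11906 and 11068 in sh-Control and 3867, 3981 and 3739 in sh-METTL3 (-1.56). CHORDC1 stood at 1528, 1138 and 1176 in sh-Control and 629, 601 and 569.9 in sh-METTL3 (-1.09), and HSPA8 at 20263, 17585 and 16832 in sh-Control and 12976, 12220.5 and 14699 in sh-METTL3 (-0.45). HYOU1, a chaperone of the endoplasmic reticulum, was at 6492 ± 1018 in sh-Control and 2707 ± 326 in sh-METTL3 (-1.26). CRYAB, the stress-induced sestrin SESN3 (2.19), DNAJC4 and PRDX5 were higher.

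A heat shock element was found in 1.68% of the 416 member promoters and in 0.490% of all 35116 promoters of the RefSeq table. The 7 genes that held it, SERPINH1, CHORDC1, HSPA8, IL18BP, MRPL48, MED19 and TMX2, were all lower, as were 278 (90.6%) of all 307 members matched to a promoter. MED19 and TMX2 start head to head 277 bases apart, so their windows overlap. In the SERPINH1 promoter printed above the match began 76 bases before the start. Another annotated SERPINH1 promoter (chr11:75562223-75562522) held 0 matches. In CHORDC1 the overlapping matches began 60, 55 and 50 bases before the start. The ETS motif CCGGAAGT was found in 8.65% of member promoters and 4.14% of all promoters, and 32 of the 35 genes that held it were lower. The NF-kappaB consensus was found in 6.73% and 5.91%, with 24 of 26 genes lower. The cAMP response element TGACGTCA was found in 2.64% and 1.85%, with 10 of 10 genes lower. The AP-1 motif TGANTCA was found in 4.81% and 7.71%, with 16 of 19 lower, and the interferon-stimulated element GAAANNGAAA in 2.88% and 3.57%, with 11 of 11 lower. These counts are near the 90.6% of all matched members. The whole promoter table also holds genes that these cells do not express. The median GC content of the promoters was 64.7% for the members and 58.3% for all other genes, and it was 64.7% for lower and 64.3% for higher members. Matches describe letters only and were not tested against the log2 ratio.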

How the data were processed

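RNA-seq was made from 6 ARPE-19 libraries (TruSeq, Trizol RNA). Per the labels, HISAT2 2.0.5 and hg38 were used. The study's methods name Cufflinks with RefSeq mRNAs for transcript assembly and differential expression. The table instead holds scaled whole read counts on GENCODE 29 genes, and the tool that counted them and its strand setting are not given in the sources used here. The deposited table holds a signal per gene and library, that is read counts divided by the authors' size factors. Dividing by the value of 1 read returned whole numbers within 0.01 for 100% of values. Totals of the listed genes were 10898434 to 17750052 reads. The table also holds the authors' group means, fold changes and p-values for the genes they called, and these columns were not used.

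Coordinates of all 7758 genes equalled GENCODE 29, from which 13 symbols were taken. Bands were set from rounded ideogram boundaries entered by hand, so genes at a band edge may belong to its neighbour. Log2 ratios are of group means without a pseudocount. Calls used limma 3.58.1 on log2(value + 1), with Benjamini-Hochberg adjustment over the 7758 genes and a threshold of 0.05. The script was checked on simulated data. edgeR 4.0.16 and DESeq2 1.42.0 on the recovered reads, other scalings, filters and left-out libraries were alternatives. Named genes were the 10 largest rises and falls among members whose groups did not overlap and whose mean reached 100, the higher members amid lower neighbours, the genes on each side of the centromere and the members of 15 gene lists. Genes named in runs, overlapping groups and head-to-head pairs were chosen after their values were seen. The members, lists and rules were chosen with earlier results of these data known. Motifs were searched in RefSeq promoters (GRCh38.p14) by Python 3.11.15.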

Additional observations from a re-analysis of the deposited data

How the results depend on the processing

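The median of the arm stayed below 0 under the 16 alternatives for the medians. The 4 planned scalings moved genes by at most 0.12 on the log2 scale (RLE), less than the smallest member ratio of 0.15, so they could not turn the sign of a member. The median log2 ratio, -0.63 as reported, became -0.51 with RLE size factors, -0.58 with TMM factors, -0.59 with totals of the listed genes and -0.55 with libraries scaled to the same median log2 level outside the arm. Setting the median log2 ratio outside the arm to 0, an alternative chosen after seeing the data, shifted genes by 0.17 and gave a median of -0.46 with 367 members lower. With genes of a mean of at least 50 the median was -0.61, and leaving out each library in turn gave -0.64 to -0.62. These shifts exceed the SD of 0.00856 between the 3 sh-METTL3 libraries. The limma calls, 367 lower and 57 higher, changed by more than 1.5 times only when at least a doubling or a halving was also required, which left 93 lower and 18 higher. With RLE factors 353 were lower, and both edgeR and DESeq2 on the recovered reads gave 367 and 57. Of the 7758 listed genes, edgeR and DESeq2 each called all 7758 and limma called 7747. A call therefore says nothing about the members in this table, whichever tool made it. Leaving out a library gave 365 to 367 lower and 54 to 56 higher. A fit with the replicate number as a block gave 367 and 57 and a median of -0.63. The numbers did not pair the libraries, since the deviations of libraries with the same number correlated at 0.00361, 0.0193 and -0.015. Of 128 band medians under the alternatives 52 moved by more than the library SD and 0 changed sign, and the q22 median ranged from -0.86 to -0.65. Of 2980 values of the 187 named genes 225 moved by more than the spread and 0 changed sign. For the 421 members whose groups did not overlap, leaving out a library, the block or a pseudocount could not change a sign. The absence of sign changes is therefore no evidence on these genes.

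Groups of 3 libraries limit the error estimates. The table holds only called genes, so members of the arm that did not differ were not analysed here, and shares of lower genes refer to listed genes.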

Other observations

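Next to the centromere, the last 7 listed genes of the short arm, from PACSIN3 (chr11:47177525) to NUP160, were all lower as well, with a median log2 ratio of -0.58. They included the sterol-sensing nuclear receptor NR1H3, at 323, 328 and 335 in sh-Control and 107, 120 and 168 in sh-METTL3, and the DNA damage-binding protein DDB2, at a log2 ratio of -0.58. The gene before them, C11orf49, was higher (0.33), and of the 147 listed genes before this stretch 46.9% were lower, with a median of 0.22. The stretch was noticed after its values were seen.

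Several small families of the arm had low members that no list held. These were chosen after their values were seen. The glycine N-acyltransferase relatives GLYATL2 and GLYATL1 stood at 65.3 ± 8.27 and 70.1 ± 5.7 in sh-Control and at 6.45 ± 1.18 and 7.12 ± 2.21 in sh-METTL3. Reads of such close copies may be split between them. The nucleotide receptors P2RY2 and P2RY6, neighbours in q13 that respond to extracellular UTP and UDP, had log2 ratios of -1.86 and -1.50. P2RY2 stood at 1098, 1116 and 1061 in sh-Control and 325, 335 and 245 in sh-METTL3.

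The 38 members that are not protein-coding were less uniform than the others. Of these 27 were lower, with a median log2 ratio of -0.90 and an interquartile range of 2.37, and their median level was 48.3. The small nucleolar RNA SNORD14E, inside HSPA8, was at 4.79, 5.76 and 7.48 in sh-Control and at 0 in every sh-METTL3 library, at least 1.8-fold lower when the sh-METTL3 mean is set to 3 reads per library. The long noncoding MIR100HG, host of a microRNA cluster, stood at 3527, 3686 and 4065 in sh-Control and 2210.2, 2403 and 2271 in sh-METTL3 (-0.71).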
